A study of Arabidopsis thaliana with 8 samples.

Results

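The 48 genes described here are the nuclear genes for the light-harvesting antennas, the photosystem subunits, 3 electron carriers, the small subunit of Rubisco and Rubisco activase of Arabidopsis thaliana. They were chosen by locus: a probe belonged to the set when the locus named in its annotation was on a list of LHCA, LHCB, PSA, PSB, PET, RBCS and RCA genes. All 48 were found among the 25665 loci on the array, each with 1 probe. By role, 4 encode antenna proteins of photosystem I, 14 antenna proteins of photosystem II, 12 photosystem I subunits, 10 photosystem II subunits, 3 electron carriers and 5 carbon fixation proteins.

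Photosystems I and II are the pigment-protein complexes of the thylakoid membrane that convert light into electron flow, and the LHC proteins around them bind chlorophyll and pass on the energy they absorb. Plastocyanin and the Rieske protein of the cytochrome b6f complex carry electrons between the photosystems, and Rubisco fixes carbon dioxide. The core reaction centre proteins and the large subunit of Rubisco are encoded in the plastid, whereas the antennas, many of the smaller subunits and the Rubisco small subunit are encoded in the nucleus and imported. Nuclear photosynthesis genes are among the most abundantly transcribed genes of green tissue and respond to light, to the GLK transcription factors and to signals from the plastid.

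Whole seedlings of ecotype Columbia-0, 2 weeks old, were profiled on Agilent arrays in a single colour, with 4 arrays for wild type and 4 for 35S:MYB87-SRDX. MYB87 belongs to the R2R3 class of MYB transcription factors, SRDX is a short motif that turns a transcription factor into a dominant repressor, and 35S is a viral promoter active in most plant cells. Each sample held 5 seedlings, called T2 in the labels of both groups, grown at 23 °C on MS agar with 1% sucrose, with 16 h of light and 8 h of darkness a day. Hygromycin was in the medium of the MYB87-SRDX samples alone, the 2 groups lay on different slides, and no group carried MYB87 without SRDX, so the effects of these cannot be told apart. Nothing in the labels says that the samples of a group came from separate plates or lines, so the p-values measure sample-to-sample spread only, part of which may be technical.

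Values are log2 processed signals minus the 75th percentile of their array, which lay between 1539 and 2055 signal units. A difference is MYB87-SRDX minus wild type with its standard error from limma, n = 4 per group, and a gene was called when its Benjamini-Hochberg adjusted p over 20336 tested loci was under 0.05. The level of one probe is not comparable with that of another. MYB87 itself read -6.80 ± 0.89 (SD) in wild type, where its probe was well above background on only 2 of 4 arrays, and 4.85 ± 1.54 in MYB87-SRDX, with 2.54 on MYB87-SRDX replicate 4 and 5.52 to 5.75 on the other arrays of that group. Arrays correlated at 0.975 to 0.994 within wild type, 0.989 to 0.995 within MYB87-SRDX and 0.961 to 0.983 between the groups.

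Most of the photosynthesis genes did not pass the test, and the 4 that did were all antenna genes of photosystem II. LHCB2.1, LHCB2.2 and LHCB4.3 rose in MYB87-SRDX by log2 0.87, 0.88 and 0.72, and LHCB1.3 fell by 0.98. Thus 3 of 48 were called higher and 1 lower, 8.33% of the set, against 27.6% of all loci tested, of which 15.1% were called higher and 12.5% lower. At an unadjusted p under 0.05, 6 of the 48 differed, against 41.4% of all loci. The groups did not overlap for 5 of the 48, against 30.8% of all loci. The median difference of the set was 0.12, with 38 genes above 0 and 10 below. The median over all loci was 0.01, with 10488 above 0 and 9848 below. Bright loci outside the set also lay mostly above 0, as given below. The median of the set was 0.066 without wild-type replicate 2 (33 above 0 and 15 below) and 0.20 without wild-type replicate 4 (45 above and 3 below). All 48 were well above background on all 8 arrays and none was saturated. In whole seedlings, fewer green cells and less of a transcript per cell cannot be told apart.

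The plot of all 48 differences shows how narrow the range of the other genes was. The 44 genes without a call had differences between -0.13 and 0.51 and adjusted p-values in limma from 0.0837 to 0.994. The 95% interval lay within 0.5 of 0 on the log2 scale for 38 of the 44, and it included 0 for 42. The exceptions were PSAL and PSBY, whose intervals began just above 0.

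**Figure D1:**
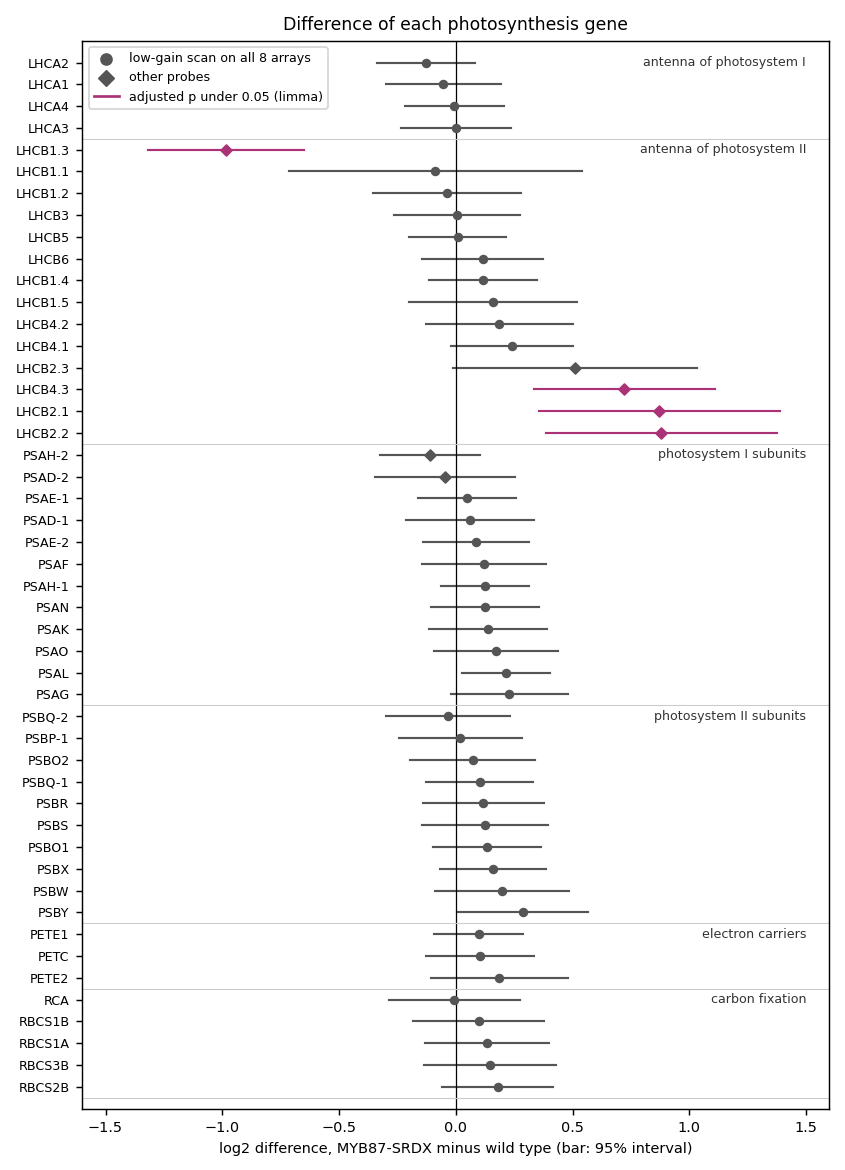
Differences of the 48 photosynthesis genes, MYB87-SRDX minus wild type, on the log2 scale, with points as limma estimates and bars as 95% intervals (n = 4 per group), ordered by class and size of difference. Circles are genes read from the low-gain scan on all 8 arrays and diamonds the other genes. LHCB1.3 stands alone below the rest at -0.98, LHCB2.1, LHCB2.2 and LHCB4.3 stand above it at 0.72 to 0.88, and the 44 others lie between -0.13 and 0.51.

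Most of these transcripts were so bright that the scanner software took their signal from a second scan at lower gain and scaled it up. This held on all 8 arrays for 41 of the 48, and the lowest signal read that way was between 14251 and 17614 units per array. None of these 41 genes was called, and their differences ran from -0.13 to 0.29. The 4 called genes were among the 7 others, of which 6 were read from the usual scan on every array and PSAD-2 was read from the low-gain scan on 2 arrays. Among the 722 other loci read from the low-gain scan on all 8 arrays, 28.3% were called, 25.5% higher and 2.77% lower, and their median difference was 0.15. Of these 722 loci 560 lay above 0 and 162 below, beside 34 above and 7 below among the 41 photosynthesis genes. The part of the low-gain scan in the small number of calls was not tested.

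The antenna of photosystem II is built from trimers of LHCB1, LHCB2 and LHCB3 proteins, the major light-harvesting complex, and from the minor proteins LHCB4, LHCB5 and LHCB6, which link the trimers to the core. Of its 14 genes 3 were called higher and 1 lower, and the median difference was 0.14. The share called, 28.6%, was close to the 27.6% of all loci tested. The calls fell on 1 of the 5 LHCB1 genes, 2 of the 3 LHCB2 genes and 1 of the 3 LHCB4 genes.

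LHCB1.3 (AT1G29930, also called CAB1) encodes one of 5 LHCB1 copies. Its level was 2.24, 2.58, 2.57 and 2.29 on the wild-type arrays and 1.14, 1.5, 1.76 and 1.35 on the MYB87-SRDX arrays. Every MYB87-SRDX value lay below every wild-type value. The difference was -0.98 ± 0.15, a 1.98-fold lower signal, with a 95% interval from -1.32 to -0.65 and an adjusted p of 0.0039 in limma. It was called in 26 of 26 alternative settings, at -1.14 to -0.88.

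The other LHCB1 genes did not show this drop. LHCB1.2 (CAB3) differed by -0.04, LHCB1.4 by 0.12 and LHCB1.5 by 0.16, with adjusted p-values of 0.857, 0.415 and 0.47 in limma. LHCB1.1 (CAB2) had the largest standard error of the set, 0.27. Its levels were 4.78, 4.04, 4.17 and 5.04 in wild type and 4.81, 4.04, 4.71 and 4.12 in MYB87-SRDX, so both groups spread over the same range. Its interval, from -0.72 to 0.54, was the widest among the 41 genes read from the low-gain scan. In the TAIR10.1 gene table LHCB1.2, LHCB1.1 and LHCB1.3 stand next to each other on chromosome 1 with 0 protein-coding genes between them, and LHCB1.5 and LHCB1.4 are likewise neighbours on chromosome 2. The LHCB1 copies are close in sequence, and whether each probe sees 1 copy alone was not tested, so the value of each copy is uncertain.

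The LHCB2 genes, whose proteins are phosphorylated when antenna moves between the photosystems, gave the next pair of calls. The processed signal of LHCB2.1 was 161 to 188 in wild type and 238 to 443 in MYB87-SRDX. LHCB2.1 (AT2G05100) was at -3.16, -3.47, -3.61 and -3.17 in wild type and at -2.47, -3.0, -1.90 and -2.55 in MYB87-SRDX. The lowest MYB87-SRDX array, replicate 2, was still above the highest wild-type array, and replicate 3 was the highest of the 8. The difference was 0.87 ± 0.22, a 1.83-fold higher signal, with an interval from 0.36 to 1.39 and an adjusted p of 0.0247 in limma.

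The processed signal of LHCB2.2 was 100 to 118 in wild type and 152 to 281 in MYB87-SRDX. On each array this was the lowest signal of the photosynthesis genes. LHCB2.2 (AT2G05070) was at -4.07, -4.22, -4.25 and -3.76 in wild type and at -3.34, -3.48, -2.56 and -3.40 in MYB87-SRDX. The groups again did not overlap, and replicate 3 again stood above the other MYB87-SRDX arrays. The difference was 0.88 ± 0.21, with an interval from 0.39 to 1.37 and an adjusted p of 0.0209 in limma. For these dim LHCB2.1 and LHCB2.2 probes the size of the rise changed with the background correction, as given below. LHCB2.1 and LHCB2.2 are neighbours on chromosome 2 and are close copies, so their probes may see the same transcripts and the pair need not be 2 separate results.

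LHCB2.3 (AT3G27690), the copy on chromosome 3, was at -0.44, -0.04, -0.13 and 0.25 in wild type and at 0.31, 0.12, 1.05 and 0.20 in MYB87-SRDX. The groups overlapped, since wild-type replicate 4 was above 2 of the MYB87-SRDX arrays. Its difference of 0.51 ± 0.23 did not pass the test (adjusted p = 0.129 in limma). On all 3 LHCB2 probes MYB87-SRDX replicate 3 was the highest array.

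LHCB4.3 (AT2G40100) encodes a form of the minor antenna protein CP29 that is also named LHCB8. It was at 2.1, 1.94, 1.88 and 2.35 in wild type and at 2.54, 2.87, 3.19 and 2.55 in MYB87-SRDX. All MYB87-SRDX arrays were above all wild-type arrays. The difference was 0.72 ± 0.17, a 1.65-fold higher signal, with an interval from 0.33 to 1.11 and an adjusted p of 0.0181 in limma.

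The other CP29 genes were closer to wild type, with LHCB4.1 at 0.24 ± 0.11 (adjusted p = 0.149 in limma) and LHCB4.2 at 0.19 ± 0.14 (adjusted p = 0.335). LHCB3, LHCB5 (CP26) and LHCB6 (CP24) differed by 0.01, 0.01 and 0.11, and none passed. The differences between copies of a family were not tested against each other.

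**Figure D2:**
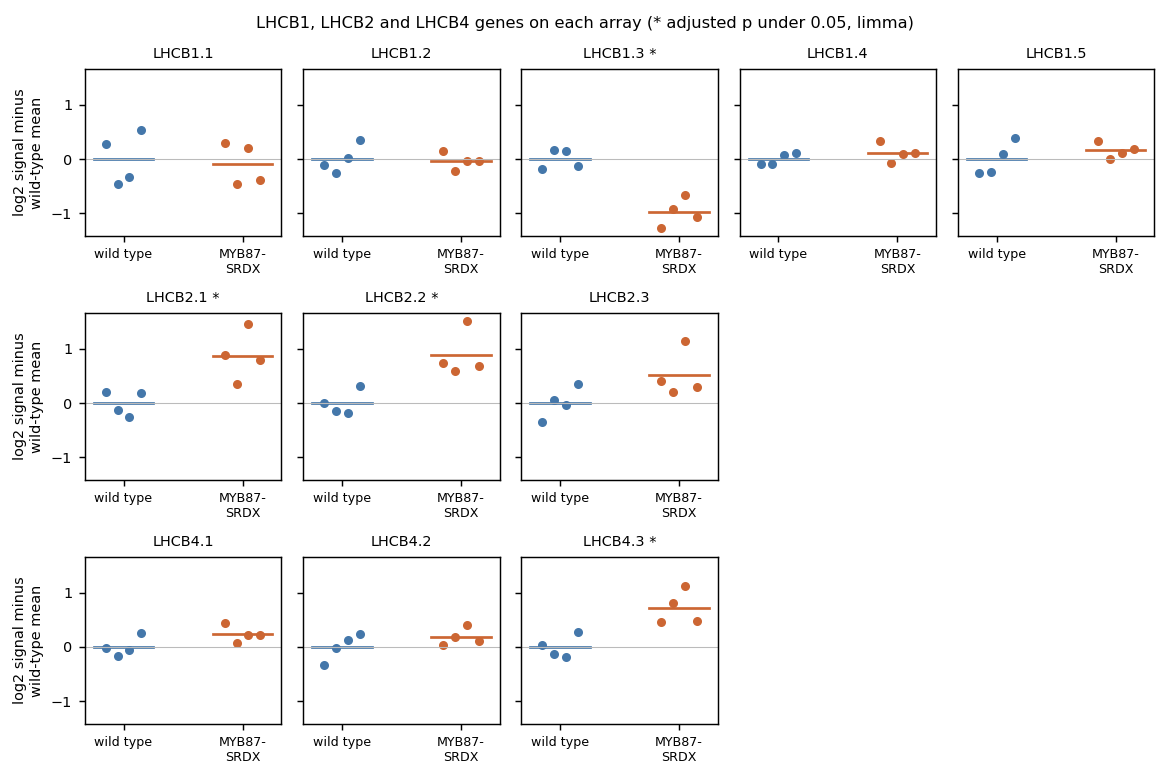
Levels of the LHCB1, LHCB2 and LHCB4 genes as log2 signal minus the wild-type mean of each gene, with one point per array, a line at each group's mean and asterisks on genes past the test. The groups are apart for LHCB1.3, LHCB2.1, LHCB2.2 and LHCB4.3 and overlap for the others shown.

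The 3 rises were less firm than the fall. LHCB2.1, LHCB2.2 and LHCB4.3 were called in 20, 22 and 22 of the 26 alternative settings, always with a difference above 0. Leaving out wild-type replicate 2 ended all 3 calls, with differences of 0.83, 0.83 and 0.68 and adjusted p-values in limma of 0.0696, 0.0617 and 0.0558. Leaving out wild-type replicate 3 ended those of LHCB2.1 and LHCB2.2, at 0.0607 and 0.0530, and leaving out MYB87-SRDX replicate 1 ended that of LHCB2.1, at 0.0627. Normexp background correction also ended all 3, at 0.114, 0.108 and 0.129 with differences of 0.90, 1.03 and 0.64, whereas normexp without spots of high local background kept the calls, with differences of 0.65, 0.67 and 0.72. Scaling on the low-gain photosynthesis genes ended the calls of LHCB2.1 and LHCB4.3, at adjusted p-values of 0.0529 and 0.0643. A block for the replicate number ended all 3 calls, at adjusted p-values of 0.0576, 0.0574 and 0.0666 in limma. It left the differences unchanged, and whether the replicate numbers pair the samples is not known.

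The antenna of photosystem I consists of LHCA1 to LHCA4, bound as a belt on one side of the core. None of the 4 genes was called, and their median difference was -0.03, with a range from -0.13 to 0.00. Cyclic loess scaling called all 4 lower, at -0.38 to -0.24 with adjusted p-values of 0.00519 to 0.0441 in limma, and quantile scaling and scaling on other low-gain probes called LHCA2 lower. The class median turned to 0.06 with median scaling, and to 0.04 without wild-type replicate 4 and 0.02 without MYB87-SRDX replicate 2. LHCA3, at the top of the class, was at 6.84, 6.81, 6.94 and 7.23 in wild type and at 7.04, 6.86, 6.94 and 6.99 in MYB87-SRDX. LHCA2, at the bottom, was at 6.09, 6.15, 6.31 and 6.48 in wild type and at 6.13, 6.10, 6.12 and 6.17 in MYB87-SRDX. For both genes the MYB87-SRDX arrays lay inside the wild-type range, and the wild-type arrays spread more widely. LHCA2 differed by -0.13 ± 0.09 (adjusted p = 0.317 in limma), LHCA1 by -0.05 and LHCA4 by -0.01.

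The LHCA genes had the lowest median of the 6 classes. Of the 26 alternatives, 13 shifted all class medians alike and could not alter that order, and in the 13 others the LHCA genes were again the lowest. A comparison within each array, which does not depend on how arrays are scaled by a constant, set the median deviation of the LHCA genes from their own means against that of the photosystem I subunits they surround. This was 0.04, 0.04, 0.11 and 0.08 on the wild-type arrays and -0.07, -0.05, -0.07 and -0.09 on the MYB87-SRDX arrays. The groups did not overlap and differed by -0.14. They also did not overlap against photosystem II antennas, photosystem II subunits or electron carriers, and they overlapped against carbon fixation genes. The comparison was chosen after the values were seen and no test was made of it.

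The subunits of photosystem I include the ferredoxin docking proteins PSAD and PSAE, the plastocyanin docking proteins PSAF and PSAN, and PSAG, PSAK, PSAH, PSAL and PSAO at the rim of the core. None of the 12 genes was called, and the median difference was 0.12, with a range from -0.11 to 0.23. PSAG, the highest, was at 6.86, 6.64, 6.82 and 7.05 in wild type and at 7.26, 6.90, 7.07 and 7.05 in MYB87-SRDX. PSAH-2, the lowest, was at 2.61, 2.91, 2.79 and 2.89 in wild type and at 2.56, 2.68, 2.85 and 2.66 in MYB87-SRDX. The groups overlapped for both, and the differences of 0.23 ± 0.11 and -0.11 ± 0.09 had adjusted p-values of 0.149 and 0.395 in limma.

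Paired copies of subunits gave small values, with opposite signs for the PSAD and PSAH pairs. PSAD-1 and PSAD-2 differed by 0.06 and -0.05, PSAE-1 and PSAE-2 by 0.05 and 0.09, and PSAH-1 by 0.13 beside the -0.11 of PSAH-2. The remaining single-copy subunits PSAF, PSAK, PSAN and PSAO lay between 0.12 and 0.17.

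PSAL, which takes part in docking the mobile antenna to photosystem I, was the only gene without a call whose groups did not overlap. It was at 4.04, 4.21, 4.21 and 4.41 in wild type and at 4.41, 4.44, 4.47 and 4.42 in MYB87-SRDX. The highest wild-type array was next to the lowest MYB87-SRDX array, and the MYB87-SRDX arrays were tightly grouped. The difference was 0.22 ± 0.08 with an adjusted p of 0.0837 in limma.

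The nuclear photosystem II subunits comprise the oxygen-evolving complex proteins PSBO, PSBP and PSBQ, the PSBR protein that supports their binding, the small membrane proteins PSBW, PSBX and PSBY, and PSBS, which triggers the harmless dissipation of excess light. None of the 10 was called, and the median difference was 0.12. PSBY was the highest of the class, at 5.39, 5.34, 5.49 and 5.88 in wild type and 5.86, 5.71, 5.81 and 5.88 in MYB87-SRDX. PSBQ-2 was the lowest, at 4.96, 5.09, 5.28 and 5.48 in wild type and 5.15, 5.08, 5.29 and 5.15 in MYB87-SRDX. Wild-type replicate 4 was slightly above every MYB87-SRDX array for PSBY, and the MYB87-SRDX arrays lay within the wild-type range for PSBQ-2. PSBY differed by 0.29 ± 0.12 (adjusted p = 0.114 in limma) and PSBQ-2 by -0.03 ± 0.12.

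Among the oxygen-evolving complex genes PSBO1 and PSBO2 differed by 0.13 and 0.07, PSBP-1 by 0.02 and PSBQ-1 by 0.10. PSBR, PSBS, PSBW and PSBX lay between 0.12 and 0.20. All of these were read from the low-gain scan on all 8 arrays.

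The electron carriers were the Rieske protein PETC and the plastocyanins PETE1 and PETE2. None of the 3 was called, and the median difference was 0.10. PETE2, the main plastocyanin of green tissue, was at 6.36, 6.16, 6.31 and 6.65 in wild type and 6.78, 6.34, 6.53 and 6.57 in MYB87-SRDX. PETE1 was at 3.94, 4.13, 4.14 and 4.15 in wild type and 4.29, 4.26, 4.03 and 4.18 in MYB87-SRDX. The groups overlapped for both, and the differences were 0.19 ± 0.13 (adjusted p = 0.3 in limma) and 0.10 ± 0.08.

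In carbon fixation, the 4 RBCS genes encode the small subunit of Rubisco and RCA encodes the activase that frees its active sites. None of the 5 was called, and the median difference was 0.14. RBCS2B, the highest, was at 6.92, 6.63, 6.78 and 7.03 in wild type and 7.14, 6.87, 7.02 and 7.05 in MYB87-SRDX. RCA, the lowest, was at 6.46, 6.35, 6.49 and 6.88 in wild type and 6.66, 6.43, 6.47 and 6.60 in MYB87-SRDX. Both overlapped between groups, with differences of 0.18 ± 0.10 (adjusted p = 0.223 in limma) and -0.01 ± 0.12. RBCS1A, RBCS1B and RBCS3B differed by 0.14, 0.10 and 0.15. RBCS3B, RBCS2B and RBCS1B are neighbours on chromosome 5 and close copies, so their probes may see shared transcripts.

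**Figure D3:**
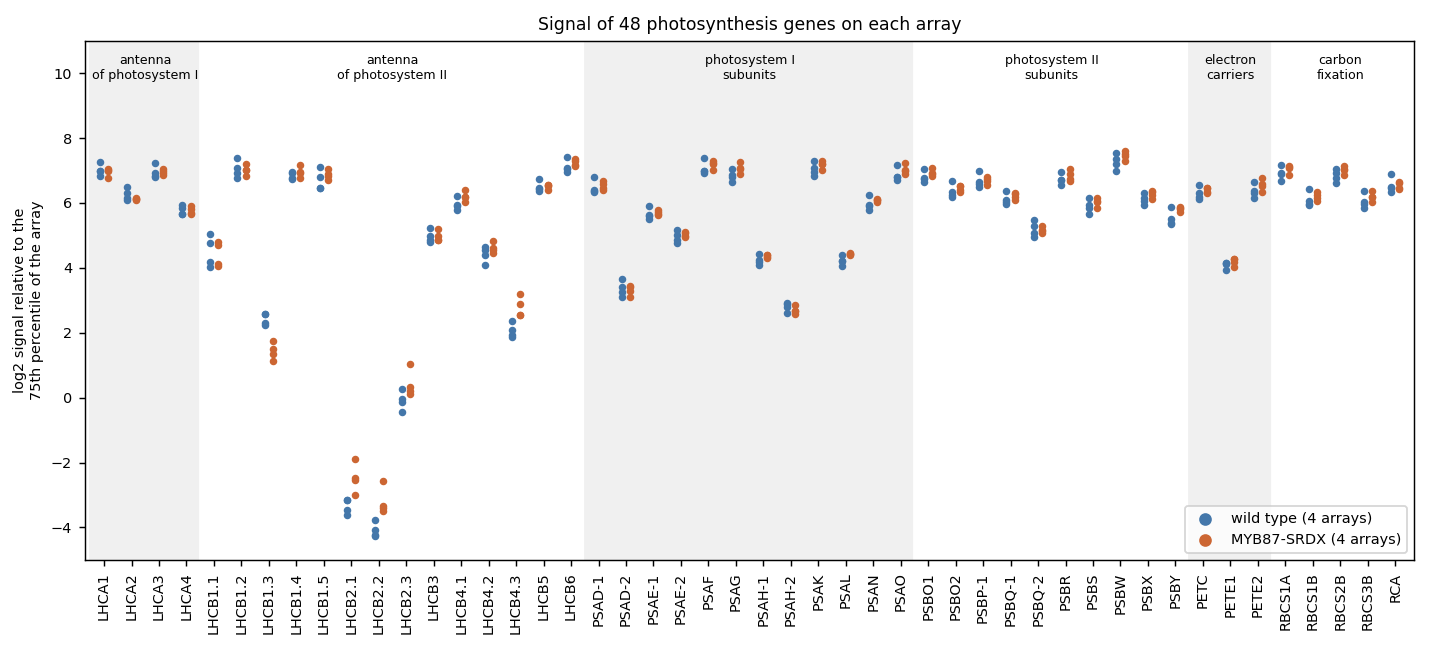
Level of every gene on every array, on the log2 scale set by each array's 75th percentile, grouped by class, with wild-type and MYB87-SRDX arrays in separate colours. Probe levels are not comparable between genes, and within nearly all genes the points of both groups share one range, with LHCB1.3, LHCB2.1, LHCB2.2 and LHCB4.3 as the genes called.

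The arrays shifted many of these genes together. Among wild-type arrays, replicate 4 was the highest for 45 of the 48 genes and replicate 2 the lowest for 29. Among MYB87-SRDX arrays, replicate 1 was the highest for 31 and replicate 2 the lowest for 39. The median deviation of the set from each gene's mean over 8 arrays was -0.13, -0.21, -0.09 and 0.20 on the wild-type arrays and 0.15, -0.08, 0.07 and 0.08 on the MYB87-SRDX arrays. The wild-type arrays thus spanned a wider range than the distance between the groups, and the MYB87-SRDX arrays lay inside that range.

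Among the 44 genes not called, the median SD was 0.20 in wild type and 0.12 in MYB87-SRDX, and the SD was smaller in MYB87-SRDX for 40. Over all loci tested the medians were 0.15 and 0.13, with the SD smaller in MYB87-SRDX for 58.5%. Among the other loci read from the low-gain scan they were 0.14 and 0.10, with 66.9% smaller. Because the 44 genes moved together on the arrays, they are not separate observations of a smaller spread.

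**Figure D4:**
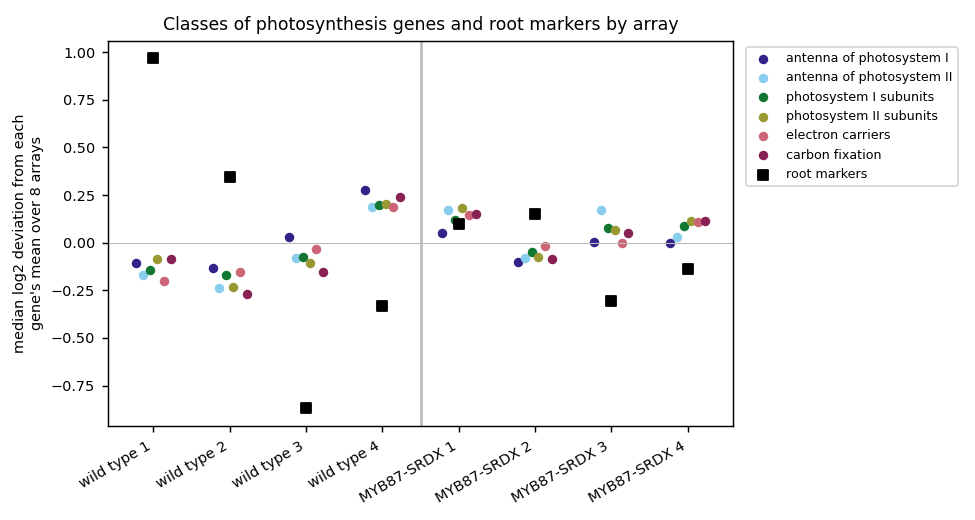
Median log2 deviation of each class of photosynthesis genes from each gene's mean over 8 arrays, by array, with root markers as black squares. All 6 classes are highest on wild-type replicate 4 among the wild-type arrays, and the root markers range from -0.87 to 0.97 within wild type.

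Whole seedlings mix green tissue with roots and epidermis. The root markers, a list of 15 genes that all passed the filter on dim probes, had a median deviation of 0.97, 0.35, -0.87 and -0.33 on the wild-type arrays and 0.10, 0.15, -0.31 and -0.14 on the MYB87-SRDX arrays. Their summed level, also weighted towards bright probes, was 7.18 to 12.9 in wild type and 5.22 to 9.49 in MYB87-SRDX, relative to the 75th percentile. The differences of the 15 genes went in both directions, from -0.95 to 1.11, with a median of -0.27. Of the 15, 1 was called (6.67%, against 27.6% of all loci), the root patterning regulator SHR at -0.41 (adjusted p = 0.00496 in limma). The 6 epidermis and guard cell markers, all of which passed that filter, summed to 24.1 to 35.2 in wild type and 22.5 to 25.8 in MYB87-SRDX, a sum weighted towards bright probes. CER1 alone made up 6.99 to 10.7 of it in wild type and 3.07 to 4.85 in MYB87-SRDX, and without CER1 the sums overlapped, at 17.1 to 24.5 and 19.0 to 22.4. Of the 6 markers 3 were called lower, namely the wax synthesis gene CER1 at -1.27, the guard cell anion channel gene SLAC1 at -0.92 and the guard cell regulator FAMA at -0.65, with adjusted p-values in limma of 0.00358, 0.00627 and 0.0172. These 3 of 6 stand beside 12.5% of all loci called lower. SLAC1 was called in 25 of 26 alternatives and was at -0.04 (adjusted p = 0.96) under normexp background correction, and FAMA was called in 22 of 26. The epidermis genes ML1 and FDH and the stomatal lineage gene SPCH were not called, at -0.18, 0.14 and -0.27. FAMA and the uncalled markers were named after their values were seen. The part of tissue makeup in the values of the photosynthesis genes was not tested.

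Other genes of the same pathways were described from lists chosen by function. The remaining Calvin cycle enzymes gave 0 calls of 16 in limma, with 2 at an unadjusted p under 0.05 and a median difference of 0.10. Photorespiration gave 0 of 9 with 1 at that level and a median of 0.11. For 1 further listed gene no probe was annotated with its locus number. The other thylakoid electron transport and ATP synthase genes gave 0 of 16 with 3 at that level and a median of 0.08. These counts stand beside 27.6% called and 41.4% with an unadjusted p under 0.05 over all loci. Of 26 listed plastid-encoded photosynthesis genes 0 had a probe annotated with their locus number, so they were not analysed here.

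In chlorophyll synthesis 1 of 23 genes was called (4.35%, against 27.6% of all loci), the magnesium chelatase subunit gene CHLI2, which was higher by 0.29 ± 0.09 (adjusted p = 0.0496 in limma) and was called in 9 of 26 alternatives. In chlorophyll breakdown 3 of 9 were called (33.3%), 2 of them higher, the pheophytinase gene PPH by 0.25 and the red chlorophyll catabolite reductase gene RCCR by 0.29, with adjusted p-values in limma of 0.0426 and 0.0431, and each in 10 of 26 alternatives. SGR2 (AT4G11910), a relative of the magnesium dechelatase that starts chlorophyll breakdown, was well above background on all 4 wild-type arrays and on none of the MYB87-SRDX arrays. It thus passed the filter on dim probes through the wild-type arrays alone. Its fitted difference was -2.24 (adjusted p = 0.00994 in limma), which rests on MYB87-SRDX signals that were not well above background. A bound of 2.18-fold lower in the main setting carries no p-value. This bound sets the wild-type mean against the lowest signal well above background on each MYB87-SRDX array, or the gene's own if higher. SGR2 was called in 23 of the 25 alternatives that tested it. The call was lost with an offset of 50 added to the signal, at -0.41, and the direction turned to 0.26 under normexp background correction.

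Of 11 genes for antenna-like stress and minor proteins, 1 was called (9.09%, against 27.6% of all loci). OHP1, a one-helix protein needed to assemble photosystem II, was at 3.18, 3.26, 3.26 and 3.5 in wild type and 3.71, 3.57, 3.66 and 3.70 in MYB87-SRDX. The groups did not overlap, and the difference was 0.36 ± 0.08 (adjusted p = 0.0175 in limma), called in 21 of 26 alternatives. The median of the list was 0.14.

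Of 13 regulators of nuclear photosynthesis genes, 2 were called higher and 2 lower, a share of 30.8% beside the 27.6% of all loci. SIG5, a nuclear-encoded sigma factor that guides the plastid RNA polymerase, was at -2.05, -1.88, -2.00 and -1.99 in wild type and -2.86, -3.02, -3.11 and -2.73 in MYB87-SRDX. Its groups were far apart, and the difference was -0.95 ± 0.09 (adjusted p = 0.00124 in limma). It was called in 25 of 26 alternatives and was at -0.43 (adjusted p = 0.449) under normexp background correction. GLK1 and GLK2 encode transcription factors that activate antenna and chlorophyll genes, largely in place of each other.

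GLK2 was at 1.3, 1.4, 1.55 and 1.42 in wild type and 2.02, 1.82, 1.86 and 1.72 in MYB87-SRDX, a difference of 0.44 ± 0.09 (adjusted p = 0.00968 in limma). GLK1 was at 2.3, 2.43, 2.63 and 2.52 in wild type and 2.08, 2.26, 2.25 and 2.19 in MYB87-SRDX, a difference of -0.27 ± 0.09 (adjusted p = 0.0488). The pair thus moved in opposite directions with no overlap between groups, the rise called in 22 of 26 alternatives and the fall in 11. PIF3, a light-labile repressor of photosynthesis genes in darkness, was higher by 0.43 ± 0.10 (adjusted p = 0.0186 in limma) and was called in 20 of 26.

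**Figure D5:**
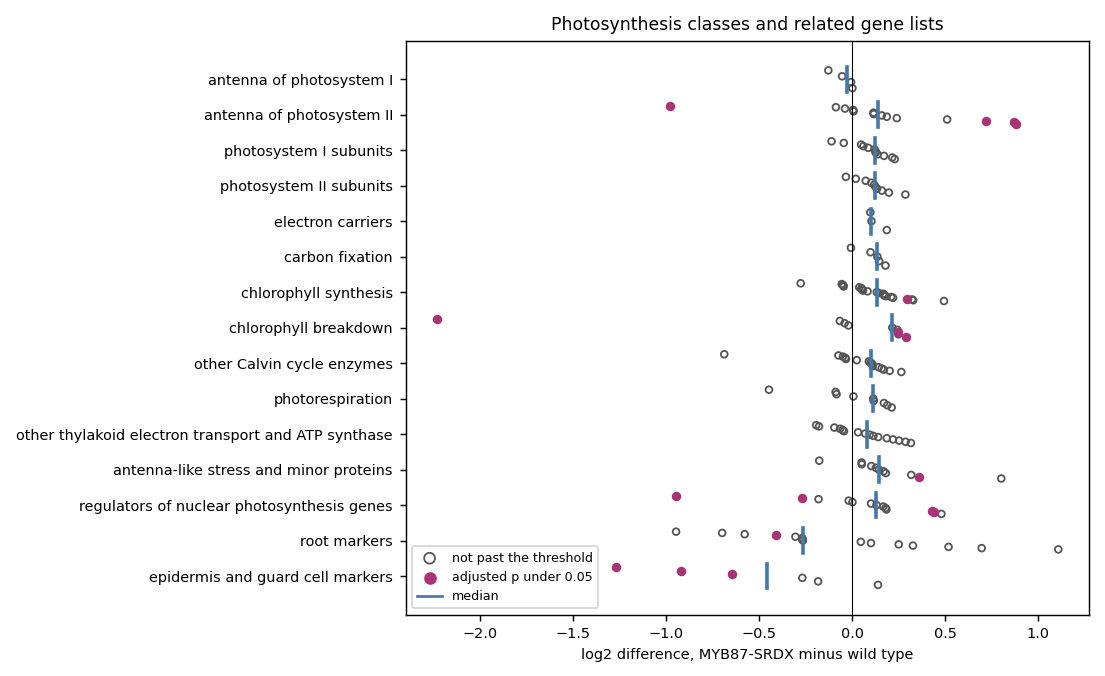
Differences of the genes in each class and each list, MYB87-SRDX minus wild type, on the log2 scale, with one point per gene, filled where past the test, and a bar at each median. The photosynthesis classes centre between -0.03 and 0.14, and SIG5 at -0.95 and SGR2 lie far below their lists. SGR2 is shown at its fitted value, though it was not above background in MYB87-SRDX.

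How arrays are scaled sets where these small differences sit. The median of the 48 genes was above 0 in 24 of 27 settings. It was -0.02 with quantile scaling, -0.15 with cyclic loess and -0.04 when arrays were scaled on the median of other probes read from the low-gain scan. The filters, the mean of probes, the variance trend and the replicate block left it unchanged and add nothing to that count. Scaling on other low-gain probes moved the median of all loci too, and the set stayed 0.11 above it, as in the main setting. The set minus all loci was -0.02 with quantile scaling, -0.13 with cyclic loess and -0.10 with normexp. The direction of a class median near 0.1 therefore depends on the scaling, whereas LHCB1.3 was lower and LHCB2.1, LHCB2.2 and LHCB4.3 were higher in every setting run.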

How the data were processed

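The deposited scanner tables give a linear intensity for each spot. Per the submitters' processing notes, the software was Agilent Feature Extraction 9.1.3.1. Per the file headers they include the processed signal, the local background and a flag for spots read from the low-gain scan. The authors' deposited intensity table equals the processed signal times 0.001094 on wild-type arrays and 0.001175 on MYB87-SRDX arrays, and served as an alternative. Spots with outlier flags (3 to 44 per array) were left out, the 75th percentile of the 37685 non-control spots of an array was subtracted on the log2 scale, and repeated spots were averaged. A probe had to be well above background on 3 arrays or more of either group, and the brightest stood for its locus. Differences were tested with limma 3.58.1 in R 4.3.3 (lmFit and eBayes, Benjamini-Hochberg adjustment) over 20336 loci. Figures were drawn with matplotlib 3.10.9. The members and lists were chosen with earlier results of these data known. Values per array are given for each called gene and for the highest and lowest of each class, and in the other lists the 2 largest rises and falls past the threshold are named. The TAIR10.1 gene table held the symbols of all 48 genes. The limma step alone was checked on simulated levels with known changes, drawn separately for each locus without shifts of whole arrays. It recovered 32.8% of changes of log2 0.5, 78.8% of changes of 1 and 93.2% of changes of 2. In that order, 61, 66 and 73 of 20262 simulated loci were changed, whereas 27.6% of loci were called in the data. The adjusted p depends on the share of changed loci, so these rates are not those of the test on these data. Scaling, background correction and the choice of probes were not covered by that check. The number of arrays limits the precision, and no slide effect could be fitted because each group lay on its own slide. No probe, promoter or protein sequence was used here. Alternatives covered scaling, background correction, filters, the variance model, a replicate block and leaving out each array.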

Additional observations from a re-analysis of the deposited data

Results flagged for a closer look

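In 96 groups of 4 arrays (48 genes in both groups), 5 held an array far from the others, and chance alone flags about 1 in 20 groups. LHCA1 was at 6.76 on MYB87-SRDX replicate 2, against 7.0 to 7.03 on the other arrays of that group. LHCB2.2 was at -2.56 on MYB87-SRDX replicate 3, against -3.48 to -3.34. PSAD-1 and PSAF were at 6.79 and 7.38 on wild-type replicate 4, against 6.33 to 6.40 and 6.93 to 6.99. PETE1 was at 3.94 on wild-type replicate 1, against 4.13 to 4.15.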

How the results depend on the processing

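Of 26 alternatives, the genes called higher were the same 3 in 19, and LHCB1.3 was called lower in 26 and alone in 23. Normexp correction (offset 50) left 0 photosynthesis genes called higher, with 765 loci higher and 471 lower. Local background was over 100 at 9 spots on MYB87-SRDX replicate 4, 6 on wild-type replicate 4 and 1 on MYB87-SRDX replicate 3, and normexp without such spots, chosen after the data were seen, gave 3184 and 2350 with 3 higher and 1 lower. The median signal was used there. The authors' values as deposited gave 1102 loci higher and 1095 lower. Median scaling gave 2675 higher and 1381 lower, against 3064 and 2540, and moved the median of all loci to 0.10. Scaling on the other low-gain probes, also added later, gave 1275 and 4335, moved that median to -0.15, and called 2 photosynthesis genes lower (LHCA2 added). Scaling on the 41 low-gain photosynthesis genes gave 816 and 1297 and left 1 higher. Quantile scaling called 2 lower and cyclic loess 9. Class medians under loess were -0.31 (photosystem I antenna), -0.14 (photosystem II antenna), -0.13 (photosystem I), -0.14 (photosystem II), -0.074 (carriers) and -0.14 (carbon fixation). With other low-gain probes they were -0.19 for the photosystem I antenna, -0.036 for photosystem I, -0.037 for photosystem II and -0.055 for carriers. Quantile scaling gave -0.024 for photosystem I and -0.048 for carriers, and normexp -0.052 for carriers. LHCA3, LHCB5 and PSBP-1 turned to -0.28, -0.25 and -0.25 under loess, and SGR2 to 0.26 under normexp. The causes were not tested. The replicate block gave 1812 higher and 1800 lower, and 0 photosynthesis genes higher and 1 lower, with LHCB2.1, LHCB2.2 and LHCB4.3 at adjusted p-values of 0.0576, 0.0574 and 0.0666 in limma. Deviations of same-numbered arrays correlated at 0.10, 0.09, 0.15 and -0.22, which does not settle whether the numbers pair the samples. The same number gave the highest correlation for MYB87-SRDX replicates 1 and 2 but not for replicates 3 and 4. Leaving out 1 array gave 1576 to 3109 loci higher, 1375 to 2897 lower, and 0 (wild-type replicate 2) to 5 (wild-type replicate 4, adding PSBY and PSAL) photosynthesis genes higher, with 1 lower throughout.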
